A study of Mus musculus with 6 samples.

Results

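The genes that place lysosomes along microtubules, tether them to other organelles and return receptors from endosomes to the Golgi apparatus were examined in bone marrow-derived macrophages (BMDM) with less Lamtor5. The set was chosen by gene name, with earlier results of these data known, and held 34 genes of the 55401 in the expression table. It covers the BORC complex, the small GTPases Arl8a and Arl8b with their effectors, and the HOPS and CORVET tethers. It also covers the RILP family, oxysterol-binding protein (OSBP) relatives, and the retromer with its sorting nexins. The samples were mouse bone marrow cells induced with M-CSF, the macrophage growth factor, 3 libraries with the genotype Lamtor5 knockdown and 3 labelled WT. The study's design names the mutant mouse HBXIPΔLysM. HBXIP is another name of Lamtor5, and LysM stands for the Lyz2 locus, whose promoter drives Cre in macrophages, monocytes and neutrophils, so a deletion by it spares cells in which Cre is not active. Strain, age and sex were not given. Nothing in the labels ties each library to its own animal. The p-values therefore rest on the variation among the 3 libraries of a group, which may not cover variation between animals.

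Lysosomes travel in both directions on microtubules. BORC sits on the lysosome and recruits Arl8, which through Plekhm2 (SKIP) or directly engages kinesins and moves lysosomes to the cell periphery. The Rab7 effector RILP, with the cholesterol sensor ORP1L (Osbpl1a), engages dynein and moves them toward the nucleus. Ragulator, of which Lamtor5 is a subunit, binds BORC and restrains it when nutrients are scarce. HOPS tethers late endosomes, autophagosomes and phagosomes to lysosomes before fusion, CORVET does so for early endosomes, and the retromer sorts receptors out of endosomes. In macrophages these steps govern phagosome maturation and antigen processing.

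The libraries held 26.0 to 28.0 M read pairs and 75.8 to 83.2 M deposited counts. Lamtor5 had 25.5, 27.1 and 24.8 FPKM (a level scaled to gene length and library depth) in knockdown replicates 1 to 3 and 55.9, 54.5 and 56.2 FPKM in WT replicates 1 to 3, in the direction of the label (edgeR quasi-likelihood test, log2 fold change -1.06, Benjamini-Hochberg adjusted p = 0.00963). Knockdown replicate 3 stood apart in Lyz2, with 73.6 FPKM against 11356 and 10650 FPKM in knockdown replicates 1 and 2 and 22454 to 29379 FPKM in WT, so the results below were also computed without it. Of 8 macrophage markers all were detected in every library, with Cd68 at 930.2 to 1571 FPKM and Adgre1 at 62.7 to 166 FPKM. Of the 8, 1 rose and 5 fell, where 4.87% of all tested genes rose and 6.46% fell. All 8 cell division markers fell, with summed levels of 19.4 to 42.2 FPKM in the knockdown against 110 to 243 FPKM in WT. Summed levels of the 6 mast cell and basophil markers were 3.32 to 8.74 against 1.35 to 2.93 FPKM (1 rose), of the 5 erythroid markers 1.34 to 7.87 against 0.315 to 0.676 FPKM (1 of 3 tested rose; Alas2 had 0 counts in every library), of the 8 neutrophil markers 69.2 to 121 against 91.9 to 139 FPKM (1 rose, 1 fell), of the 6 B cell markers 1.11 to 5.49 against 5.80 to 8.21 FPKM, of the 6 T cell markers 0.606 to 0.906 against 0.696 to 1.01 FPKM (Cd3g had 0 counts in every library) and of the 6 fibroblast markers 0.690 to 5.27 against 1.72 to 6.17 FPKM. In the last 3 lists edgeR called 0 genes (at an unadjusted p under 0.05 it gave 0 B cell, 0 T cell and 1 fibroblast gene, DESeq2 called 0, 0 and 1, and limma 0). The part of these markers and of the change in cell division genes in the results below was not tested. In bulk RNA fewer cells of a type and less RNA per cell cannot be told apart.

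All 34 genes passed the filter on low counts and were tested. In the knockdown 7 rose, Rilpl1, Rilpl2, Osbpl5, Arl8b, Kxd1, Plekhm2 and Vps11, and 1 fell, Snx1. The 7 are 20.6% of the set, where 4.87% of all 18164 tested genes rose, and the 1 is 2.94%, where 6.46% of all fell (11.3% in either direction). Of the 7, Rilpl1, Rilpl2, Osbpl5 and Arl8b rose at least 2-fold, as 2.04% of all tested genes did, and Snx1 fell by less, where 2.92% of all fell at least 2-fold. The knockdown libraries lay above every WT library for 13 of the 34 (38.2%, against 16.3% of all tested genes) and below for 2 (5.88%, against 21.3%; 37.6% of all tested genes did not overlap in either direction). The log2 fold change was above 0 for 26 of the 34 with a median of 0.17, and it was above 0 for 51.5% of all tested genes with a median of 0.02. Since the set was chosen with earlier results known, these shares are a description and were not tested. The genes that passed came from 6 of the 9 complexes, and no complex had all of its genes called.

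**Figure D1:**
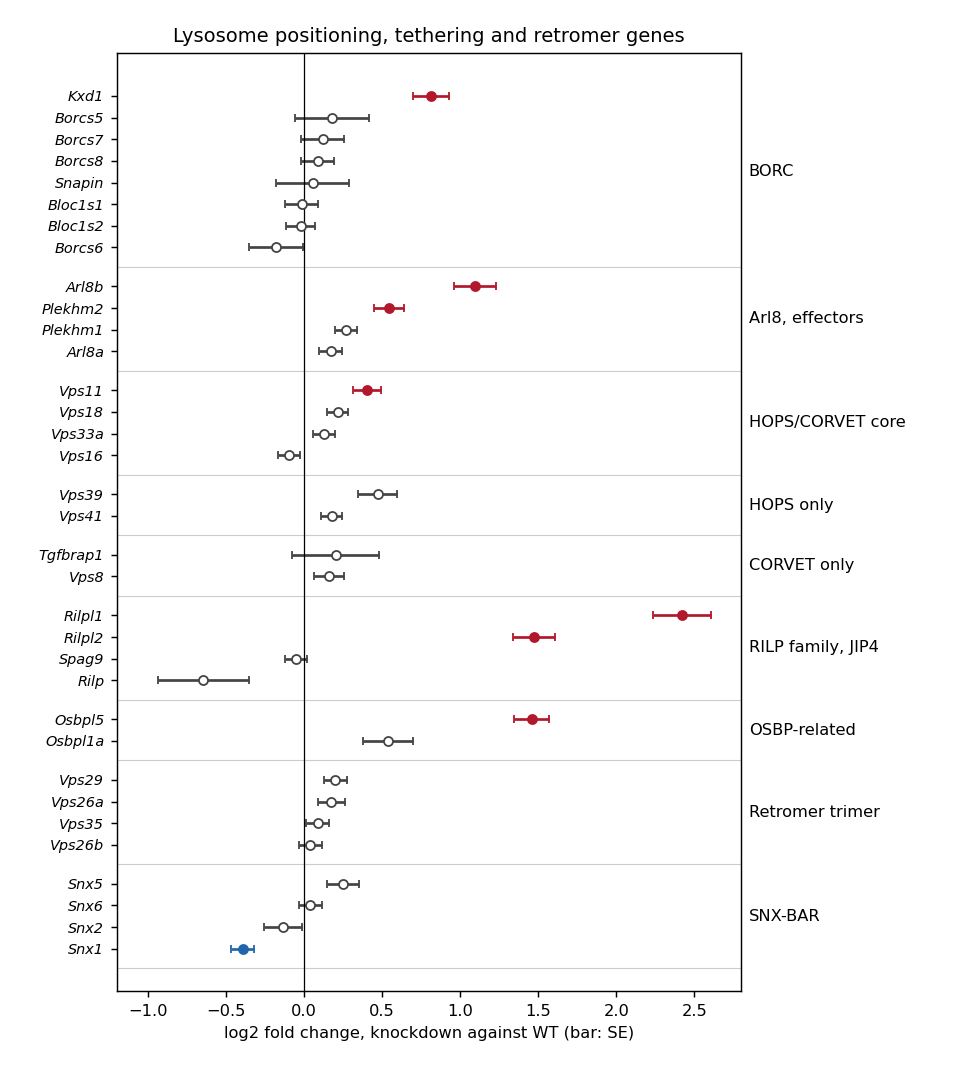
Log2 fold change (x axis, knockdown against WT, edgeR) of each of the 34 genes with its standard error (bars), grouped by complex; filled points passed an adjusted p of 0.05, red higher and blue lower, and open points did not. Rilpl1 (2.42), Rilpl2 (1.47), Osbpl5 (1.46) and Arl8b (1.09) lie farthest to the right, and the retromer trimer and most BORC subunits lie near 0.

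The calls depended on the libraries. Without WT replicate 2 edgeR called 0 members (13 at an unadjusted p under 0.05) and 0 of all genes, with a smallest adjusted p of 0.0616, whereas DESeq2 on the same 5 libraries called 6 members higher and 2 lower; without knockdown replicate 1 edgeR called 4 higher and 0 lower. Without knockdown replicate 3, 5 were higher and 0 lower: Arl8b, Kxd1, Osbpl5, Rilpl1 and Rilpl2, which also passed without WT replicate 3, whereas Snx1 was lost without any single library but WT replicate 1.

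The 2 largest increases of the 34 were in the RILP family, which shares a domain that binds Rab GTPases. Rilpl1 encodes a RILP-like protein that binds phosphorylated Rab8 and Rab10 and is known from the centrosome and primary cilium (ENSMUSG00000029392, GRCm38 chromosome 5, 124493080 to 124531391, minus strand). It had 11.4, 9.75 and 14.03 FPKM in knockdown replicates 1 to 3 and 2.54, 2.22 and 2.02 FPKM in WT replicates 1 to 3. Every knockdown library was more than 3 times above every WT library, and the fitted change was 5.36-fold (log2 fold change 2.42, SE 0.19, adjusted p = 0.00963). Without knockdown replicate 3 it was 2.26 (adjusted p = 0.0134).

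Its relative Rilpl2, a partner of myosin Va and of the same Rabs, was by far the most abundant family member (ENSMUSG00000029401, chromosome 5, 124463265 to 124478366, minus strand). It had 85.7, 86.6 and 109 FPKM in the knockdown and 38.1, 33.9 and 32.7 FPKM in WT, that is 93.8 ± 13.2 against 34.9 ± 2.83 (mean ± SD, n = 3). The groups did not overlap (log2 fold change 1.47, SE 0.13, adjusted p = 0.00963; 1.34 without knockdown replicate 3). Rilp itself, the dynein adaptor of Rab7, was present at a low level: 1.33, 1.06 and 1.30 FPKM in the knockdown and 2.47, 1.32 and 2.19 FPKM in WT. These values overlapped and did not pass (log2 fold change -0.65, adjusted p = 0.190). Spag9 encodes JIP4, a scaffold that links lysosomes to dynein and kinesin, and held 15.4 to 16.4 FPKM in the knockdown and 16.2 to 17.3 FPKM in WT (-0.05, adjusted p = 0.684). The family's total, with Spag9, was 113 to 141 FPKM in the knockdown and 54.2 to 59.3 FPKM in WT, with Rilpl2 the largest term in every library.

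Rilpl1 and Rilpl2 are neighbours, with 14713 bases between them that hold Snrnp35. Their surroundings were looked at after their values were seen. Of 17 tested genes within 200000 bases on either side, these 2 rose and 1, Cdk2ap1, fell. Snrnp35, a gene of the minor spliceosome, had a mean of 8.24 FPKM in the knockdown against 5.58 FPKM in WT (log2 fold change 0.60, adjusted p = 0.287), Kmt5a, a histone methyltransferase gene beside Rilpl2, was at 0.12 (adjusted p = 0.407). Cdk2ap1, an inhibitor of a cyclin-dependent kinase, fell by 0.80 on the log2 scale (adjusted p = 0.0360). Gm43034 on the opposite strand shares 259 exonic bases with Rilpl1 and had 0.214 against 0.0492 FPKM (adjusted p = 0.372), which is far under the level of Rilpl1.

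**Figure D2:**
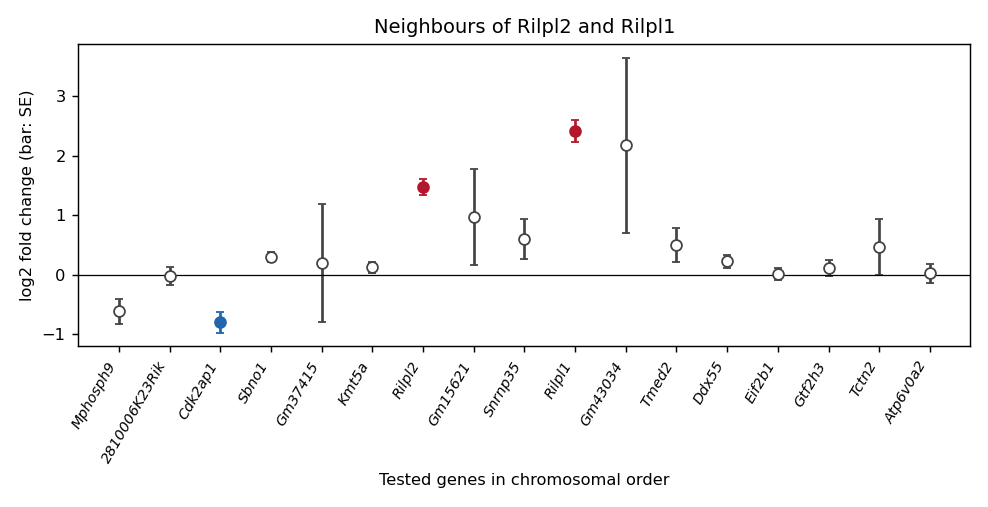
Log2 fold change with its standard error (y axis) for the 17 tested genes around Rilpl2 and Rilpl1, in chromosomal order (x axis, not to distance); filled points passed an adjusted p of 0.05. Rilpl2 and Rilpl1 are the only filled points above 0, and Cdk2ap1 is the only one below.

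Of the 4 genes of the Arl8 group, the GTPase gene Arl8b and the kinesin adaptor gene Plekhm2 rose. Arl8b (ENSMUSG00000030105, chromosome 6, 108783099 to 108825278, plus strand) had 104, 107 and 141 FPKM in the knockdown and 55.8, 56.0 and 58.7 FPKM in WT. The WT libraries were close to each other, knockdown replicate 3 was the highest of all, and the groups were well apart (log2 fold change 1.09, SE 0.13, adjusted p = 0.0113; 0.93 without knockdown replicate 3, adjusted p = 0.0134). Plekhm2, which couples Arl8 to kinesin-1, had 30.9, 28.4 and 33.7 FPKM in the knockdown and 22.6, 21.7 and 21.7 FPKM in WT (0.55, SE 0.097, adjusted p = 0.0204; 0.47 without knockdown replicate 3, adjusted p = 0.054). Plekhm1, which binds Arl8, Rab7 and HOPS and takes part in fusion, was also above WT in every library, at 41.7 to 44.8 against 36.8 to 38.1 FPKM, but missed the threshold (0.27, adjusted p = 0.0611). The same held for Arl8a, at 25.4 to 26.4 against 23.2 to 24.2 FPKM (0.17, adjusted p = 0.182). In all 4 genes the knockdown libraries lay above every WT library, as in 16.3% of all tested genes. Of the 4, 2 passed, where 4.87% of all tested genes rose, and the group as a whole was not tested.

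Within the pair, Arl8b made up 70.3 to 70.8% of the Arl8 level (FPKM) in WT and 80.4 to 84.2% in the knockdown. The log2 ratio of Arl8b to Arl8a within a library was 1.26 ± 0.021 in WT and 2.17 ± 0.207 in the knockdown (mean ± SD, n = 3), a difference of 0.91. Of 8 such pairs compared, 4 were separate between the groups, each with p = 0.1 in the exact two-sided permutation test, the smallest value that 3 against 3 can give (0.2 adjusted over the 8). The other 3 were Plekhm2 to Plekhm1 (0.27 higher in the knockdown), Rilpl2 to Rilpl1 (-0.94, since Rilpl1 changed more) and Snx2 to Snx1 (0.26 higher). The pairs that set HOPS against CORVET subunits, Tgfbrap1 to Vps39 and Vps8 to Vps41, overlapped, as did Vps26b to Vps26a and Snx6 to Snx5 (exact permutation p from 0.2 to 0.9).

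**Figure D3:**
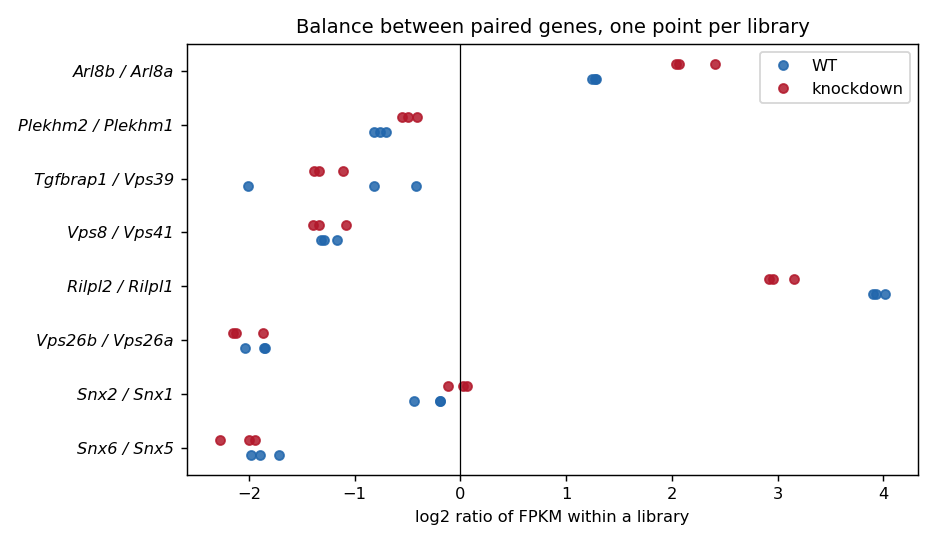
Log2 ratio of FPKM (x axis) between 2 genes that take like places, 1 point per library, red for knockdown and blue for WT. Red and blue points are apart for Arl8b to Arl8a, Plekhm2 to Plekhm1, Rilpl2 to Rilpl1 and Snx2 to Snx1, and mixed for the other 4 pairs.

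Of the 8 BORC subunits 1 rose. Kxd1 (ENSMUSG00000055553, chromosome 8, 70508272 to 70527956, minus strand) had 32.1, 28.0 and 32.9 FPKM in the knockdown and 19.1, 19.2 and 16.4 FPKM in WT, so its groups were apart (log2 fold change 0.81, SE 0.12, adjusted p = 0.0133). Its gene shares 224 of its 3176 exonic bases with Fkbp8 on the opposite strand, which was at 39.8 against 36.4 FPKM on average (0.18, adjusted p = 0.185), and the strand setting of the counting is not stated, so the value of Kxd1 is uncertain where shared reads were split. The other 7 subunits, Borcs5 to Borcs8, Bloc1s1, Bloc1s2 and Snapin, had log2 fold changes from -0.18 to 0.18 and overlapping groups. Borcs5, the subunit that anchors BORC to the membrane, was among the lowest, with 2.20 to 3.56 FPKM in the knockdown and 2.13 to 3.46 FPKM in WT. The subunits' levels summed to 103 to 106 FPKM in the knockdown and 92.8 to 95.6 FPKM in WT. Kxd1 had means of 31.0 and 18.3 FPKM, the widest gap of the 8. By position, 19 of the 34 genes overlap another gene, on either strand, and the values of those that share exons carry a like uncertainty. Of the 8 that passed, Kxd1, Rilpl1 and Rilpl2 overlap another gene by position, while Arl8b, Plekhm2, Vps11, Osbpl5 and Snx1 overlap none. Rilpl2 shares 0 exonic bases with Gm15621, the gene that it overlaps. Of the 5 subunits that BLOC-1 has outside BORC, edgeR called 0 (1 at an unadjusted p under 0.05; DESeq2 and limma called 0).

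**Figure D4:**
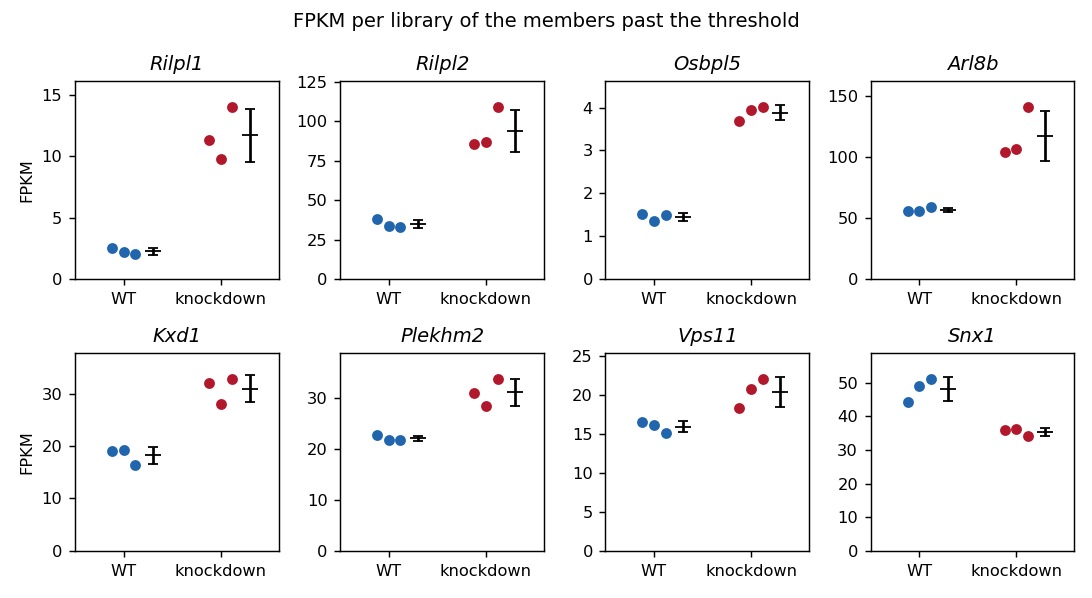
FPKM (y axis, from 0) in each library of the 8 genes that passed the test, with the mean and SD of each group beside its 3 points. In every panel the red knockdown points and the blue WT points do not overlap, and in Snx1 alone the knockdown is lower.

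Motors were taken from a list of kinesin, dynein and dynactin genes. Of 30 tested, 3 rose and 4 fell, 10% and 13.3%, where 4.87% of all tested genes rose and 6.46% fell. Kif1a, a kinesin that Arl8 can recruit, rose at a very low level, with 0.494, 0.320 and 0.424 FPKM in the knockdown and 0.107, 0.131 and 0.105 FPKM in WT (log2 fold change 1.896, SE 0.25, adjusted p = 0.0122). Kif3a, of the kinesin-2 motor, rose from 7.71 to 13.6 FPKM (0.87, adjusted p = 0.0203). The abundant kinesin-1 heavy chain gene Kif5b, whose motor Plekhm2 recruits, fell, with 13.4, 15.7 and 12.7 FPKM in the knockdown and 17.4, 20.3 and 20.7 FPKM in WT (-0.43, SE 0.094, adjusted p = 0.0333). Nde1, a dynein regulator that also acts in mitosis, fell from 17.1 to 8.42 FPKM (-0.98, adjusted p = 0.0114), and the dynein light chain gene Dynlt1f (-0.75), the dynactin gene Dctn1 (-0.32) and, upward, Dctn6 (0.43) passed as well. The dynein heavy chain gene Dync1h1 did not pass (-0.21, adjusted p = 0.151). Without knockdown replicate 3 the calls of Kif3a, Kif5b, Dynlt1f, Dctn1 and Dctn6 were lost.

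Of the OSBP relatives Osbpl5 rose. It encodes ORP5, a lipid exchanger of the endoplasmic reticulum membrane at its contacts with other membranes (ENSMUSG00000037606, chromosome 7, 143688762 to 143756985, minus strand). It had 3.68, 3.93 and 4.01 FPKM in the knockdown and 1.53, 1.35 and 1.49 FPKM in WT, with little spread in either group (log2 fold change 1.46, SE 0.11, adjusted p = 0.00963). Osbpl1a, whose long form ORP1L senses cholesterol on late endosomes, had 4.86, 4.13 and 5.35 FPKM against 2.81, 3.48 and 3.98 FPKM. Its groups were apart but it did not pass (0.54, adjusted p = 0.0764). In the list of 23 other tested lysosome adaptors and contact proteins 0 rose and 1 fell (4.35%) in edgeR, where 4.87% and 6.46% of all tested genes did. At an unadjusted p under 0.05 edgeR gave 4 and 3, while DESeq2 called 2 and 3, and limma 0 and 1. The gene that fell was Stard3nl, a late endosomal cholesterol-binding tether, from 5.25 to 3.52 FPKM (-0.53, adjusted p = 0.0158). Rab7, the GTPase that RILP and ORP1L bind, was at 0.29 (adjusted p = 0.0972).

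Among the tethers, 1 of 4 subunits shared by HOPS and CORVET rose. Vps11, a scaffold of both complexes, had 18.4, 20.7 and 22.1 FPKM in the knockdown and 16.6, 16.1 and 15.1 FPKM in WT (log2 fold change 0.40, SE 0.092, adjusted p = 0.0388). The groups did not overlap, but the call was lost without any single library other than WT replicate 1, with adjusted p from 0.0678 to 0.144. Vps18 was above WT in every library, at 28.7 to 29.3 against 25.6 to 26.3 FPKM, and did not pass (0.22, adjusted p = 0.0835). Vps16 was below WT in every library, at 12.9 to 13.9 against 14.5 to 15.2 FPKM, and did not pass either (-0.10, adjusted p = 0.423). Vps33a, the subunit that binds SNARE proteins, was at 0.13.

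Of the subunits that make a tether HOPS, Vps39 had 12.99, 11.99 and 12.01 FPKM in the knockdown and 10.3, 7.76 and 9.55 FPKM in WT. Its groups were apart and it missed the threshold (0.47, adjusted p = 0.0593); it passed without WT replicate 1. Vps41 was at 0.18 (adjusted p = 0.143). The CORVET subunits were lower in level: Vps8 held 6.46 to 7.30 FPKM in the knockdown and 5.97 to 6.68 FPKM in WT, and Tgfbrap1 held 4.595 to 5.54 FPKM in the knockdown and 2.56, 5.82 and 5.43 FPKM in WT. Both overlapped between the groups (0.16 and 0.20, adjusted p = 0.313 and 0.674). For these 4 genes edgeR gave 2 at an unadjusted p under 0.05, Vps39 and Vps41, and DESeq2 called 1, Vps39. Of 20 tested partners of the tethers, among them the SNARE genes Stx7, Stx8, Vti1b and Vamp8, edgeR called 0 (2 higher and 2 lower at an unadjusted p under 0.05; 2 and 1 in DESeq2, 0 in limma).

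The retromer trimer did not pass the test in any subunit. Vps35, its scaffold, held 26.4, 27.7 and 27.2 FPKM in the knockdown and 24.2, 26.6 and 28.3 FPKM in WT, so the groups were mixed (log2 fold change 0.09, SE 0.073, adjusted p = 0.474). Vps26a was the more abundant arrestin-like subunit, with 49.3 to 58.7 against 49.2 to 51.7 FPKM (0.17), Vps26b had 13.0 to 13.5 against 12.6 to 13.8 FPKM (0.04), and Vps29 had 10.8 to 11.8 against 9.72 to 10.9 FPKM (0.20, adjusted p = 0.122). Of these 4 genes edgeR gave 1 at an unadjusted p under 0.05, Vps29, and DESeq2 and limma called 0.

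Of the 4 sorting nexins with a BAR domain, which shape the tubules that carry retromer cargo, 1 fell. Snx1 (ENSMUSG00000032382, chromosome 9, 66088133 to 66124886, minus strand) had 35.9, 36.3 and 34.0 FPKM in the knockdown and 44.3, 48.9 and 51.2 FPKM in WT. Every knockdown library was lower (-0.39, SE 0.074, adjusted p = 0.0229). Its close relative Snx2 had 36.4, 33.5 and 35.5 against 32.6, 42.9 and 44.8 FPKM and overlapped, with WT replicate 1 below every knockdown library (-0.14, adjusted p = 0.503). Their partner Snx5, the most abundant of the 4, was above WT in every library, with 62.1 to 73.3 against 53.7 to 60.1 FPKM, and did not pass (0.25, adjusted p = 0.158). Snx6 held 15.1 to 16.1 against 15.2 to 16.3 FPKM (0.04).

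A list of retromer partners and of the WASH, retriever and GARP complexes held 21 tested genes. In edgeR 3 rose (14.3%) and 0 fell, where 4.87% of all tested genes rose and 6.46% fell. At an unadjusted p under 0.05 edgeR gave 6 and 3, while DESeq2 called 4 and 1, and limma 3 and 0. Washc2, the WASH complex subunit that binds Vps35, rose from 21.7 to 28.2 FPKM (0.43, SE 0.066, adjusted p = 0.0153). Snx32, a relative of Snx5 and Snx6, rose from 5.06 to 8.18 FPKM (0.74, adjusted p = 0.0163), and Vps54, of the Golgi tether GARP, rose by 0.47 (adjusted p = 0.0493), a call lost without any single library but WT replicate 1. Of 8 tested cargo genes 1 rose and 2 fell, 12.5% and 25%, against the same 4.87% and 6.46% of all tested genes. The iron transporter gene Slc11a2 rose from 11.7 to 18.7 FPKM (0.73, adjusted p = 0.0131). The receptor gene Lrp1 fell from 138 to 99.4 FPKM (-0.42, adjusted p = 0.0306), and the glucose transporter gene Slc2a1 fell by 0.41 (adjusted p = 0.04997), a call lost without any 1 of the 6 libraries. The mannose 6-phosphate receptor genes Igf2r and M6pr, which carry hydrolases to the lysosome, were at 0.16 and -0.02 and did not pass.

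Promoters were read because lysosomal genes often carry the CLEAR element, a motif around the E-box CACGTG that MiT/TFE transcription factors bind. RefSeq promoter sequences (GRCm38.p6, 250 bases before to 50 after a start) matched 26 of the 34 genes. The E-box, searched on both strands, was found in 7 of the 26 (26.9%) and in 8.09% of all 27025 genes with such sequences. The longer TCACGTG, which contains it, was found in 5 (19.2%) and in 4.29% of all. The 27025 genes were not limited to those tested for expression, whereas all 34 members were tested. The shares thus come from unlike sets and were not compared by a test. The genes with an E-box were Bloc1s1, Vps16, Vps33a, Tgfbrap1, Vps26a, Snx5 and Osbpl5, of which Osbpl5 alone passed the test. The other 3 genes that rose and had an entry, Rilpl1, Rilpl2 and Plekhm2, held neither it nor TCATGTG, a variant that was added after the first counts and occurs in 4.31% of all genes. A match describes letters in this window and is not a measured binding site. The stretches below are written 5′ to 3′ on the gene's strand, with matches in capitals. They show a motif within 60 bases before the start in 3 genes that did not pass, each with the palindrome TCACGTGA. Snx5 and Tgfbrap1 did not pass either and are not shown. Their E-boxes begin 50 bases and 1 base before a start. The match 161 bases before a start of Osbpl5 follows. Osbpl5 has 3 starts in these sequences, and the windows of its other starts hold no E-box. Last come the 100 bases before the start of the 2 genes that rose most, which hold none. Capitals mark the matches that lie whole in the stretch, with flanking bases where they make the palindrome TCACGTGA.
Vps33a, chr5:123573016-123573075, minus strand: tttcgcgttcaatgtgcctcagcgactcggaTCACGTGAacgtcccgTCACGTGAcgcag
Vps16, chr2:130424260-130424319, plus strand: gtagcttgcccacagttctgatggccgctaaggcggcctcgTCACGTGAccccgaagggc
Bloc1s1, chr10:128923525-128923584, minus strand: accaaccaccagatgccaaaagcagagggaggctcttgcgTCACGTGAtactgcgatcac
Osbpl5, chr7:143757137-143757196, minus strand: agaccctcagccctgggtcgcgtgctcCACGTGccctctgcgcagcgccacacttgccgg
Rilpl1, chr5:124531392-124531491, minus strand: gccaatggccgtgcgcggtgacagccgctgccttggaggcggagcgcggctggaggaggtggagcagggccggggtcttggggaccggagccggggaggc
Rilpl2, chr5:124478236-124478335, minus strand: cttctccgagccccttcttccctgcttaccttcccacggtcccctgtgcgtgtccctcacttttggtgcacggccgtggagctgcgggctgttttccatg
Of the 4 genes shown with a match, Vps33a had 18.0 to 19.7 FPKM in the knockdown and 17.2 to 18.4 FPKM in WT, and Bloc1s1 had 16.7 to 19.7 against 17.9 to 21.1 FPKM. Both overlapped between the groups. Vps16 was below WT in every library without passing, and Osbpl5 rose, as given above.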

How the data were processed

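RNA sequencing libraries of 6 BMDM samples were compared, 3 knockdown and 3 WT, grouped by the genotype label. Per the file headers, the authors trimmed reads with cutadapt 1.9 and deposited for each library a count and an FPKM column; the submitters' processing notes name the build GRCm38 (mm10). Aligner, counter, annotation and strand setting were not given in the sources used here. Counts as deposited are whole numbers that sum to 2.95 to 3.01 per read pair kept, for a reason that was not given. They were treated as estimated counts and used as deposited, and no binomial interval was made. The minimum count of the filter below is on this scale and not in read pairs. FPKM values, scaled by the authors per length and depth, are printed as levels.

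The test was edgeR 4.0.16 (R 4.3.3): filterByExpr with a minimum count of 10, TMM scaling, quasi-likelihood fit with group as the only term, Benjamini-Hochberg adjustment over all tested genes, threshold 0.05. The SE is the log2 fold change divided by the square root of F. Fold changes come from this fit, and paired-gene ratios were compared by exact permutation tests (scipy 1.17.1). The scripts were tested on simulated data. Replicate libraries differed by more than sampling noise. Members and lists were chosen with earlier results of these data known. All members were to be described, with up to 4 genes of smallest p from each related list; Lyz2, Dync1h1, Rab7, Igf2r, M6pr, the further motors that passed, Fkbp8 and the genes around Rilpl1 and Rilpl2 were named after their values were seen. The alternatives tried were DESeq2 1.42.0, RLE scaling in edgeR, no filter, counts divided by counts per read pair, limma 3.58.1 on log2(FPKM + 1) and log2(FPKM + 0.1) with a mean FPKM of at least 1 or no filter, robust fitting, a replicate block, and each library left out. Tmem55a, Tmem55b, Vamp7 and Dscr3 matched no gene name of the table and were not analysed here. A result on 1 further gene is not reported here.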

Additional observations from a re-analysis of the deposited data

How the results depend on the processing

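The main counts were 885 genes higher and 1173 lower, with 7 members higher and 1 lower. DESeq2 gave 1927 and 2240 genes, with 11 members higher (Osbpl1a, Plekhm1, Vps18 and Vps39 besides the 7) and 1 lower. Without a count filter the genes were 510 and 695, and limma on log2(FPKM + 1) without a filter gave 6 and 9, with 1 member higher (Osbpl5) and 0 lower. Leaving out a library gave 0 to 945 genes higher and 0 to 1389 lower, with 0 to 8 members higher and 0 to 1 lower; DESeq2 without WT replicate 2, chosen after seeing the data, gave 1218 genes higher and 1422 lower, with 6 members higher and 2 lower, Rilp and Snx1. With the replicate number as a block the genes were 304 and 424, with 5 members higher and 0 lower; same-numbered libraries correlated at 0.046, 0.036 and -0.011 in their deviations from the group means, and knockdown replicate 3 correlated best with another number, so the numbers were not taken to pair the libraries. Borcs6, Bloc1s1, Snapin, Tgfbrap1, Vps26b and Snx6, and of the related genes Bloc1s6 and M6pr, changed sign in at least 1 setting, and these 8 passed in 0; the other genes named kept their sign in every setting that gave a value. The 8 differences in paired-gene ratio moved by less than 1 SD between libraries in every setting tried. For the settings that left out a library this was fixed in advance, since leaving out 1 of 3 cannot move a mean that far. With counts in place of FPKM, gene length largely cancels in the difference. These settings therefore do not show how stable the ratios are. Over the 15 planned settings Osbpl5 passed in 14, Rilpl1, Rilpl2 and Arl8b in 13, Kxd1 in 12, Plekhm2 in 9, Snx1 in 8 and Vps11 in 7; the related genes that passed did so in 6 (Vps54, Slc2a1) to 13 (Nde1). Counting promoters only before the start gave an E-box in 6 of the 26 members (23.1%) and in 6.86% of all genes with promoter sequences, whether tested for expression or not. The number of libraries limits the precision.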

Other observations

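For 16 of the 34 members the WT libraries ranged more widely in FPKM than the group means differed; 3 of them are given here, chosen after their values were seen. Snapin, a BORC subunit that also binds SNARE proteins, had 9.84, 8.73 and 16.7 FPKM in WT replicates 1 to 3, while the knockdown libraries held 11.6 to 11.9 FPKM. Tgfbrap1, the CORVET subunit, had 2.56 FPKM in WT replicate 1 and 5.82 and 5.43 FPKM in the other WT libraries. Borcs6 had 16.7 FPKM in WT replicate 1, 12.6 in replicate 2 and 10.98 in replicate 3, against 11.01 to 12.4 FPKM in the knockdown. The knockdown libraries were close to each other for these 3 genes. Rufy4, an adaptor gene of the lysosome and dynein, had the largest log2 fold change of the related lists (2.798) at a very low level and did not pass (adjusted p = 0.0604).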
